A study of Mus musculus with 12 samples.

Results

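Mitochondrial ribosomal proteins are the protein parts of the ribosome inside mitochondria, and their transcripts were followed here in resting and activated mouse B cells. Members were taken by name: every probe set annotated to a single gene whose symbol is Mrpl or Mrps followed by a number. This gave 156 probe sets for 76 genes, of 45101 probe sets on the array and of 18193 genes with a probe set of their own. By symbol, 47 genes (104 probe sets) belong to the large subunit and 29 genes (52 probe sets) to the small subunit. A single probe set reads 34 of the genes and 2 or more read the other 42, up to 8 for Mrpl15. Another 4 probe sets that name such a gene together with a second gene were left out, so Mrpl30 and Mrpl53 were not analysed here. No filter on low values was applied, and for each of the 76 genes the brightest probe set had a mean above 5.70, the mean of the array medians (log2).

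Total RNA was profiled in B cells of the spleen, taken from wild type mice or from mice carrying the EFLmDREAM transgene, named for the calcium-binding repressor DREAM, the product of Kcnip3. Cells were isolated by removing CD43-bearing cells, to a stated purity above 98%, and were either unstimulated (day 0) or cultured for 2 days with lipopolysaccharide (LPS, 20 µg/ml) and interleukin 4 (IL-4, 10 ng/ml), which together drive resting B cells into growth and division. The 4 groups were wild type day 0, transgenic day 0, wild type day 2 and transgenic day 2, each with 3 arrays from independent biological replicates, 12 in all. The animals' age and strain, and the promoter and mutations of the transgene, are not given in the sources used here. They do not say whether a Kcnip3 probe set reads the transgene either, so Kcnip3 does not check the labels.

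The mitochondrial ribosome makes the few proteins encoded by mitochondrial DNA, all of them core parts of the oxidative phosphorylation complexes. Its RNA comes from the mitochondrial genome, but every one of its proteins is encoded in the nucleus, translated in the cytosol and imported. Many of the proteins descend from bacterial ribosomal proteins and keep the bacterial number, while others with higher numbers were added in the mitochondrial lineage. In lymphocytes, activation is accompanied by growth of the mitochondrial network and by a demand for new respiratory chain.

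Promoter sequences are shown for 6 of the genes on which the results turn, so that the regulatory region can be read beside the change of the transcript. They are RefSeq sequences of GRCm38.p6, 170 bases before and 30 bases after the start, written 5′ to 3′ on the gene's own strand, with motif matches in capitals. Mrps6 (chr16:92058166-92058365, plus strand) had the largest rise and holds none of the motifs searched. The same is true of Mrps2, Mrpl12 and Mrpl47, which were also among the largest rises and are not printed. Mrps22 (chr9:98601650-98601849, minus strand) and Mrpl22 (chr11:58171494-58171693, plus strand) were among the largest rises and hold the ETS motif CCGGAAG, in Mrpl22 with the NRF1 motif GCGCATG. Mrps18a (chr17:46110834-46111033, plus strand), which holds CCGGAAG and the YY1 motif AAGATGG, differed by genotype on day 0. Mrpl24 (chr3:87919374-87919573, plus strand) did not rise. Mrps11 (chr7:78782961-78783160, plus strand) starts 42 bp from the start of Mrpl46, which runs the other way, and holds AAGATGG on the opposite strand (in capitals as CCATCTT). This match lies at −106, past the Mrpl46 start, and so within the transcribed stretch of Mrpl46.
Mrps6: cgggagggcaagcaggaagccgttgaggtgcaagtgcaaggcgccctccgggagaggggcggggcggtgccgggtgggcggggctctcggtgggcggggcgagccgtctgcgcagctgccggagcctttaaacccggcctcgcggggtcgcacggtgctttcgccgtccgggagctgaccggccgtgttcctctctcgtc
Mrps22: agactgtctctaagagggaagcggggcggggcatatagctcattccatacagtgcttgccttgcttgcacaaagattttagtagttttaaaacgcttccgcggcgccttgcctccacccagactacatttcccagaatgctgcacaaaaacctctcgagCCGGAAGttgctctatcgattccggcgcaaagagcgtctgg
Mrpl22: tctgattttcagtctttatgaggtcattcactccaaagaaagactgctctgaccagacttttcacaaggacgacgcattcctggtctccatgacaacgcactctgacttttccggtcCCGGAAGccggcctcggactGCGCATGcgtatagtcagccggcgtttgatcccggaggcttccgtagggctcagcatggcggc
Mrps18a: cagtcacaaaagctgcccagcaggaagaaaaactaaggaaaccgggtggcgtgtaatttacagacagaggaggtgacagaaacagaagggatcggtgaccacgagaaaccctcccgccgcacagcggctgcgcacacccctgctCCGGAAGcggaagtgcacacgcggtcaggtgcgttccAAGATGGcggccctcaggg
Mrpl24: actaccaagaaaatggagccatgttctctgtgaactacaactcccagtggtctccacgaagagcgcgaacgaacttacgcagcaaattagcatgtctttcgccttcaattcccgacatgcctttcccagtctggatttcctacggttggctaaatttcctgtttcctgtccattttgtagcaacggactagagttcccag
Mrps11: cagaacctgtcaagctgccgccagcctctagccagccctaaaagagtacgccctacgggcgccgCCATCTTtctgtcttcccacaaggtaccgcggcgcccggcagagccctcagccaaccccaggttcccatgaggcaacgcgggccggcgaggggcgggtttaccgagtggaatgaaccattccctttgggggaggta

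A promoter was found in the RefSeq table for 67 of the 76 genes. The exact letters of 5 motifs were searched on both strands over 300 bases, 250 before and 50 after the start, and none of the 5 contains another. CCGGAAG, bound by ETS factors such as GABP, was found in 25 of the 67 promoters (37.3%), against 12.9% of 17491 coding genes. AAGATGG, bound by YY1, was found in 13 (19.4% against 7.18%), and GCGCATG, a core of the site of the mitochondrial regulator NRF1, in 8 (11.9% against 5.39%). The E-box CACGTG, bound by MYC, was found in 5 (7.46% against 8.91%) and the cyclic AMP element TGACGTC in 4 (5.97% against 4.35%). These are shares of promoters that hold the letters, and binding was not measured. A second start pointing the other way within 1000 bp upstream was found for 23 of the 67 genes (34.3%, against 8.48% of the coding genes).

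After stimulation of wild type cells nearly the whole family rose: 75 of the 76 genes were higher on day 2 and none was lower (limma, adjusted p under 0.05), while 60.0% of all genes were called in either direction. Among the genes whose mean lay above the array medians, as it did for the 76, 41.3% were higher and 28.9% lower. The median change of the family was 1.24 on the log2 scale, 2.36-fold, with quartiles of 0.94 and 1.58, beside a median of 0.08 over all genes. A rise of at least 2-fold was called for 52 of the 76, and for 14.9% of the genes above the array medians. The exception was Mrpl24. On the deposited scale the family's median was 1.11 where that of all probe sets was −0.40, and with array medians subtracted 1.73 where that of all probe sets was 0.22. Stimulation changes are differences of log2 values quantile-normalized over the 12 arrays, because the array medians lay at 5.97 to 6.05 on day 0 and at 5.37 to 5.41 on day 2, and their errors are standard errors with n = 3 arrays per group.

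**Figure D1:**
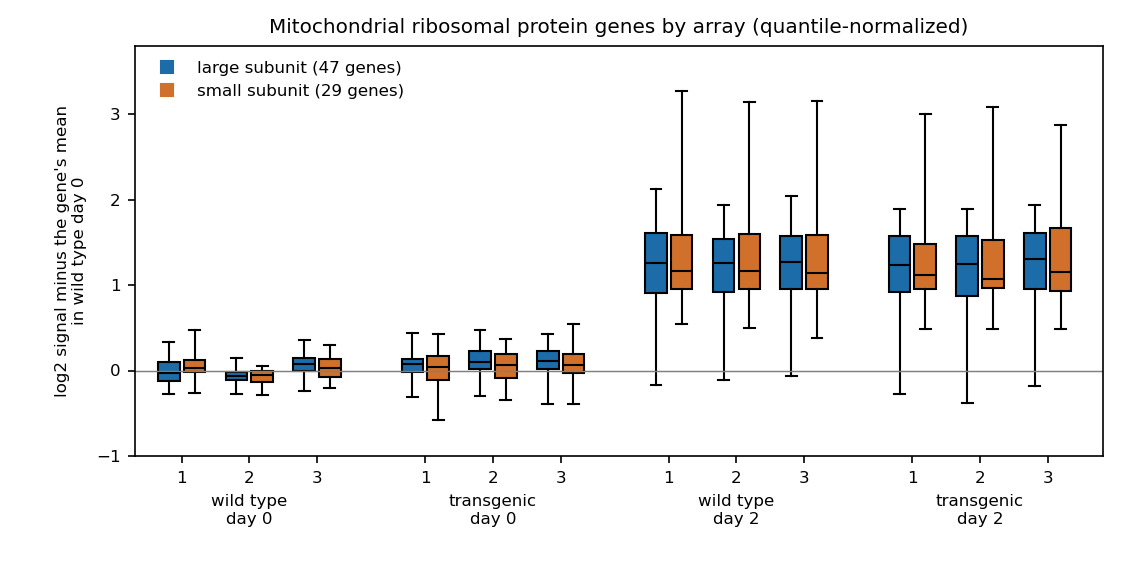
Each box shows 1 array's quantile-normalized log2 signals for the large subunit (blue, 47 genes) or small subunit (orange, 29 genes), each gene as the difference from its own mean over the 3 wild type day 0 arrays; boxes are quartiles, the line is the median and whiskers reach the lowest and highest gene. The boxes of the 6 day 2 arrays lie above all boxes of the 6 day 0 arrays, for both subunits and both genotypes.

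The rise was seen on each array. The mean level of the 76 genes (quantile-normalized log2) was 8.44, 8.36 and 8.48 on the wild type day 0 arrays and 9.69, 9.66 and 9.69 on the wild type day 2 arrays. In transgenic cells it was 8.47, 8.52 and 8.52 on day 0 and 9.64, 9.64 and 9.68 on day 2. The lowest stimulated array therefore stood more than a full log2 unit above the highest unstimulated one, against a pooled SD of 0.036 between replicates. For 75 genes the 3 wild type day 2 arrays all lay above the 3 day 0 arrays, which held for 42.5% of the genes above the array medians.

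Both subunits rose. Of the large subunit genes 46 of 47 were higher (median 1.28, from −0.12 for Mrpl24 to 1.97 for Mrpl1), and of the small subunit genes 29 of 29 (median 1.12, from 0.51 for Mrps24 to 3.19 for Mrps6). Structures of the ribosome place Mrps18a and Mrps30 in the large subunit despite their symbols. With both moved, the counts were 48 of 49 (median 1.26) and 27 of 27 (median 1.12). The mean of the large genes minus that of the small genes, of use only from array to array, was 0.22 to 0.32 in wild type cells on day 0 and 0.20 to 0.23 on day 2. The genes with bacterial numbers (Mrpl to 36, Mrps to 21) rose in 42 of 43 cases with a median of 1.19, and those with later, mitochondria-specific numbers in 33 of 33 cases with a median of 1.24. Differences between these classes were not tested.

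Mrps6, a small subunit protein of bacterial descent, had the largest rise. Its log2 level was 6.99, 6.23 and 6.32 in wild type cells on day 0 and 9.79, 9.66 and 9.67 on day 2, and 6.71, 6.41 and 6.66 against 9.52, 9.60 and 9.39 in transgenic cells. Replicate 1 of wild type day 0 was the highest of the unstimulated arrays, and the days did not overlap. The change was 3.19 ± 0.16 in wild type (adjusted p = 2.75e-09) and 2.91 ± 0.16 in transgenic cells (adjusted p = 7.56e-09). A second probe set for Mrps6 rose by 1.79 and 1.82, so the size differs between its probe sets and the direction does not.

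Mrps2, also of the small subunit, read 7.40, 7.47 and 7.43 on day 0 and 9.76, 9.66 and 9.67 on day 2 in wild type cells, a change of 2.26 ± 0.079 (adjusted p = 9.99e-11). Mrps22, which has no bacterial counterpart and is mutated in inherited respiratory chain disease, went from 7.66, 7.57 and 7.43 to 9.37, 9.49 and 9.72, a change of 1.98 ± 0.10 (adjusted p = 1.66e-09). Both had days far apart, and Mrps22 showed the wider spread between day 2 arrays. The next largest rises of the small subunit were Mrps15 (1.96), Mrps28 (1.85) and Mrps10 (1.66).

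In the large subunit the leading genes lay close together. Mrpl1, a part of the mobile stalk beside the exit site for spent tRNA, rose by 1.97 ± 0.12 (adjusted p = 2e-08). Mrpl12, of the opposite stalk that recruits translation factors, read 8.62, 8.67 and 8.87 on day 0 and 10.63, 10.64 and 10.76 on day 2 in wild type cells and rose by 1.96 ± 0.10 (adjusted p = 3.63e-09). Mrpl40 rose by 1.95, Mrpl42 by 1.86, Mrpl47 by 1.83 and Mrpl22, whose bacterial relative lines the exit tunnel, by 1.73. Neighbours in this order lie about a standard error apart or closer and are not ranked.

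Genes listed for their role in the ribosome also rose. Mrps12, the protein of the decoding centre, rose by 0.97 ± 0.079, Mrpl11, at the base of the factor-binding stalk, by 0.78 ± 0.11, and Mrpl3 by 1.07 ± 0.066. Mrpl44, which has a ribonuclease III fold, rose by 1.45, Mrps34 by 1.46, Mrps30 by 1.00 and Mrps16 by 0.54. The 3 Mrps18 paralogs, which descend from 1 bacterial protein, rose by 1.53 (Mrps18b), 1.19 (Mrps18a) and 0.60 (Mrps18c). Mrpl58, a peptidyl-tRNA hydrolase that frees stalled ribosomes, rose by 1.24 on its brighter probe set. Its other probe set read −0.19 in wild type (adjusted p = 0.112) and fell in transgenic cells (−0.24, adjusted p = 0.0444), where the brighter one rose by 0.86. Mrps36, whose product is now assigned to the 2-oxoglutarate dehydrogenase complex and not to the ribosome, rose by 0.90.

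**Figure D2:**
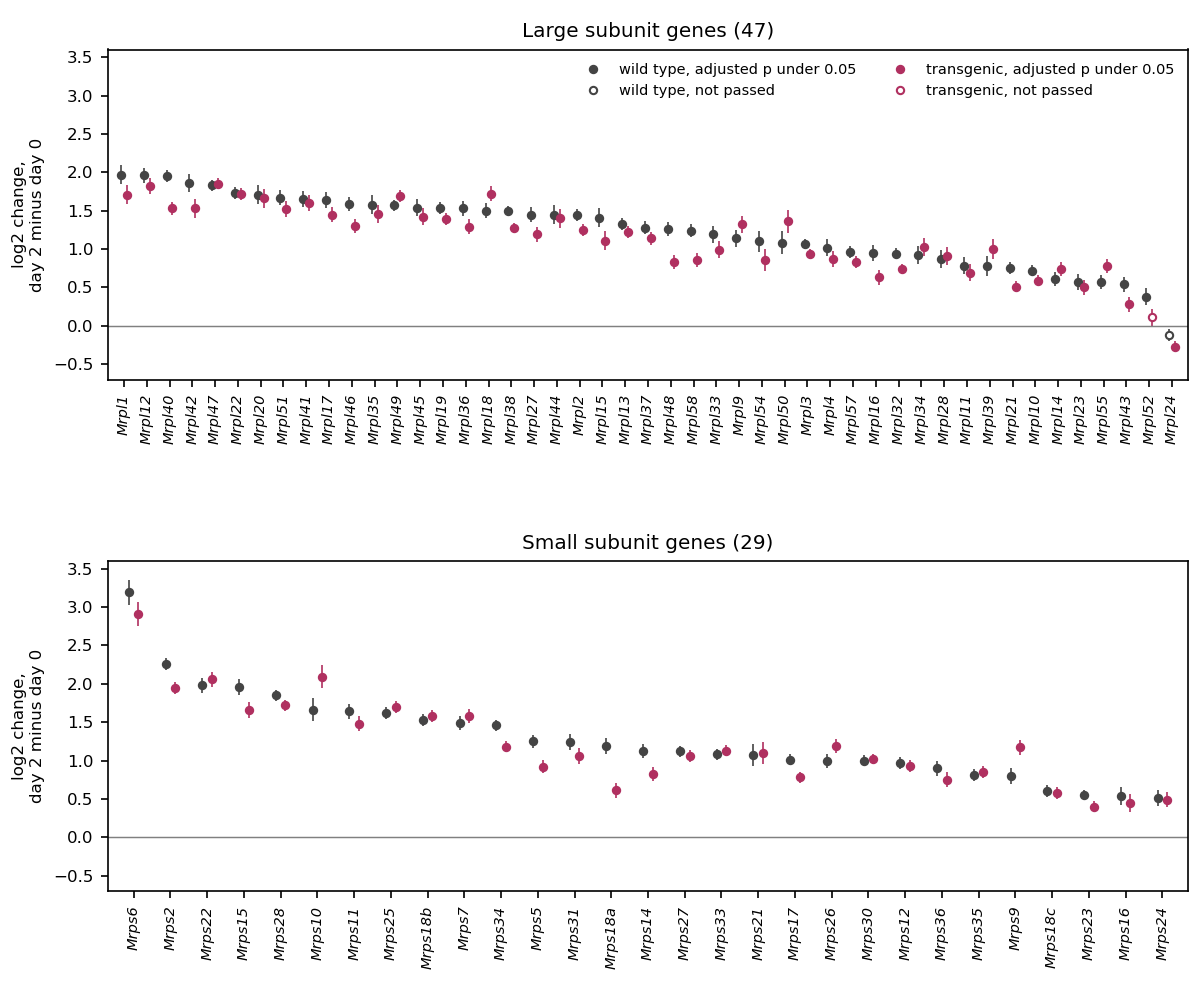
Change from day 0 to day 2 (log2, quantile-normalized values) for each of the 47 large subunit genes (top) and 29 small subunit genes (bottom), ranked by the wild type value; grey points are wild type, red points transgenic, bars are standard errors with n = 3 arrays per group, and open points did not pass an adjusted p under 0.05. Wild type and transgenic points run together from Mrps6 at 3.19 and 2.91 down to Mrpl24 at −0.12 and −0.27.

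Mrpl24 and Mrpl52 were at the low end. Mrpl24, a large subunit protein whose bacterial relative starts the folding of the large ribosomal RNA, is read by 1 probe set. Its levels were 10.00, 10.10 and 10.02 on day 0 and 9.87, 9.93 and 9.98 on day 2 in wild type cells, and 10.03, 10.07 and 9.99 against 9.76, 9.66 and 9.86 in transgenic cells. The change was −0.12 ± 0.074 in wild type (adjusted p = 0.198) and −0.27 ± 0.074 in transgenic cells (adjusted p = 0.00741). On the deposited scale the transgenic change was −0.15 (adjusted p = 0.103), and with array medians subtracted the changes turned to 0.63 and 0.49, so the direction of Mrpl24 depends on the scaling. Mrpl52 rose by 0.38 ± 0.11 in wild type cells (adjusted p = 0.0128) and stood at 0.11 ± 0.11 in transgenic cells (adjusted p = 0.426). The Mrpl52 call was lost without wild type day 0 replicate 2 (0.24) or day 2 replicate 1 (0.33). In transgenic cells Mrpl52 passed on deposited values (0.29, adjusted p = 0.0232) and with array medians subtracted (0.93, adjusted p = 5.41e-06), so its call there depends on the scaling.

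Counted by probe set, 124 of the 156 were higher and 12 lower in wild type cells (30.7% and 26.1% of all probe sets), with a median of 1.01. Each of the 12 that fell belongs to a gene with a brighter probe set, and their mean levels were 4.15 to 7.31. Of these, 7 lay above the mean of the array medians and 5 below it. In 11 genes (Mrpl1, Mrpl13, Mrpl15, Mrpl21, Mrpl38, Mrpl52, Mrpl54, Mrps14, Mrps21, Mrps26 and Mrps9) 1 probe set rose while another fell. For Mrpl13 the brightest probe set rose by 1.33 and the lowest fell by 1.08. For Mrpl21, 2 of 3 probe sets fell, both by 0.54, while the brightest rose by 0.75. What separates such probe sets was not tested.

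The family rose in transgenic B cells too. On day 2, 74 of the 76 genes were higher than on day 0 and 1, Mrpl24, was lower, where 58.5% of all genes were called, and 40.8% and 28.1% of those above the array medians were higher and lower. The median change was 1.13 (2.20-fold, quartiles 0.83 and 1.52), beside 0.083 over all genes. A rise of at least 2-fold was called for 46 genes, and for 13.9% of the genes above the array medians. Large subunit genes were higher in 45 of 47 cases (median 1.19) and small subunit genes in 29 of 29 (median 1.10). The 74 genes were also higher in wild type cells. The leading genes were Mrps6 (2.91), Mrps10 (2.09), Mrps22 (2.06), Mrps2 (1.94), Mrps28 (1.72) and Mrps25 (1.70) of the small subunit, and Mrpl47 (1.85), Mrpl12 (1.82), Mrpl22 (1.72), Mrpl18 (1.72), Mrpl1 (1.71) and Mrpl49 (1.69) of the large subunit. Across the 76 genes the 2 genotypes' changes, which share no array, correlated with Pearson's r of 0.931 and Spearman's rho of 0.917, genes not being independent replicates.

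**Figure D3:**
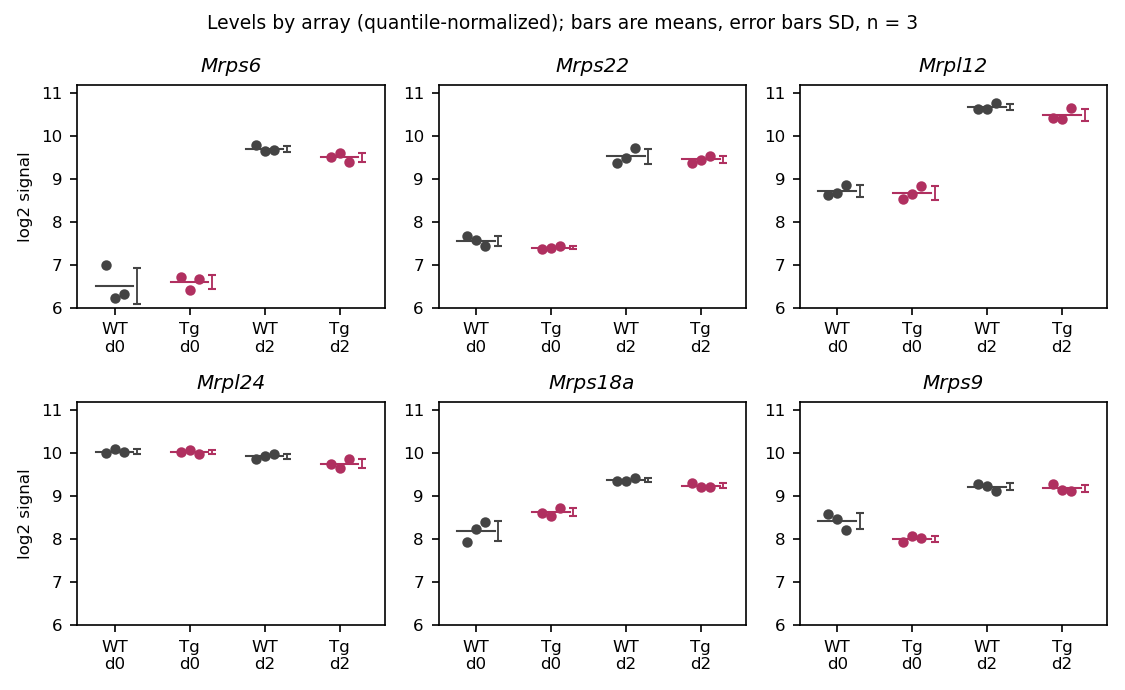
Quantile-normalized log2 signal of 6 genes on each of the 12 arrays, for wild type (WT, grey) and transgenic (Tg, red) cells on day 0 (d0) and day 2 (d2); horizontal bars are means, error bars SD, n = 3 arrays per group. Mrps6, Mrps22 and Mrpl12 rise in both genotypes, Mrpl24 stays between 9.66 and 10.10, Mrps18a starts higher and Mrps9 lower in transgenic cells on day 0.

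Whether the rise differed between genotypes was tested by the interaction of genotype and day, on the deposited log2 values. None of the 76 genes passed, where 1.98% of all genes did, and 9 had an unadjusted p under 0.05 (19.0% of the genes above the array medians). The median interaction was −0.13, from −0.53 to 0.36, beside −0.01 over all genes, and 53 of the values were below 0. Mrps18a came nearest, at −0.53 ± 0.12 (adjusted p = 0.0558), and it passed without wild type day 0 replicate 3 (−0.59, adjusted p = 0.0242). Over the 76 genes the lowest bound of a 95% interval was −0.83 and the highest 0.82 (Mrps10). Single genes had narrower intervals, such as −0.30 to 0.10 for Mrpl3, and the median standard error was 0.13. A difference between the genotypes' rises that lies within a gene's own interval remains possible for that gene.

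Few of these genes differed between unstimulated transgenic and wild type cells. On day 0 Mrps18a was higher and Mrps9 lower in transgenic cells, 2 of the 76 genes, while 10.4% of all genes were called, and 6.91% and 7.09% of those above the array medians were higher and lower. The median difference was 0.035, the range −0.39 to 0.35, and 11 genes had an unadjusted p under 0.05 (32.5% of the genes above the array medians). The 3 transgenic arrays lay wholly above the wild type arrays for 14 genes and wholly below for 3, beside 15.5% and 15.8% of the genes above the array medians. The lowest bound among the 95% intervals of single genes was −0.65 and the highest 0.54.

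Mrps18a read 8.14, 8.39 and 8.46 in wild type and 8.66, 8.64 and 8.74 in transgenic cells on day 0 (deposited log2), with no overlap, a difference of 0.35 ± 0.088 (adjusted p = 0.0257). Mrps9, a small subunit protein of bacterial descent, read 8.73, 8.59 and 8.30 in wild type and 8.08, 8.22 and 8.14 in transgenic cells, also without overlap, a difference of −0.39 ± 0.11 (adjusted p = 0.0346). Neither call was kept when the fit held the 6 unstimulated arrays alone (adjusted p = 0.11 and 0.119). Without wild type day 0 replicate 1, whose actin and GAPDH probe sets had the largest 3′ excess of the 12 arrays (5′ minus 3′ of −2.22 and −1.78, the other day 0 arrays −0.67 to −0.54 and −0.38 to 0.02), the differences were 0.25 and −0.30 and neither passed. Without transgenic replicate 1, 2 or 3 they were 0.36, 0.37 and 0.32 for Mrps18a and −0.36, −0.43 and −0.39 for Mrps9, and none passed. Mrps9 also did not pass without wild type day 0 replicate 2 (−0.37) or day 2 replicate 2 (−0.39), or on its probe set outside the _s, _x and _a classes (−0.24). By probe set, 5 of the 156 were higher (Mrpl15 and Mrps15 with 2 each, and Mrps18a) and 3 lower (Mrpl1 and 2 of Mrps9), beside 4.47% and 4.98% of all probe sets.

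The transgenic day 0 arrays also carried more signal of other blood cells, and its part in these differences was not tested. Of the granulocyte markers 13 of 14 were higher in transgenic day 0 cells (median 2.64), with summed signals of 11203 to 16203 against 1152 to 1241 in wild type. Markers of monocytes, macrophages and dendritic cells were higher in 15 of 18 cases (9879 to 14773 against 4849 to 6136), erythroid markers in 7 of 10 (2024 to 2807 against 765 to 1061) and T and NK cell markers in 5 of 15 (2108 to 2372 against 1313 to 1689). Of all genes 5.45% were higher in transgenic day 0 cells. The 9 B cell markers with a probe set of their own were all above the array median in every group, with sums of 37714 to 44775 in wild type and 42312 to 42868 in transgenic day 0 cells. Of these 9, 1 (Cr2) was called higher in transgenic day 0 cells. On day 2 the granulocyte sums were 423 to 441 and 547 to 634 in the 2 genotypes, those of monocytes, macrophages and dendritic cells 947 to 1082 and 1418 to 2016 (3 of 18 markers called higher in transgenic cells, as were 3 of 14 for granulocytes), those of erythroid cells 314 to 328 and 319 to 325, and those of T and NK cells 1399 to 1571 and 1369 to 1512. By genotype on day 2, 1 of 15 T and NK cell markers and 1 of 9 B cell markers were higher. Of the 10 erythroid markers 0 were, beside 1.24% of all genes. Beside the rise of the ribosomal protein genes, markers were lower on day 2 than on day 0 in 9 of 14 cases in wild type and 14 of 14 in transgenic cells for granulocytes, 12 and 16 of 18 for monocytes, macrophages and dendritic cells, 7 and 9 of 10 for erythroid cells, 7 and 8 of 15 for T and NK cells, and 8 and 8 of 9 for B cells. Of all genes 24.0% and 23.3% were lower in wild type and transgenic cells. Markers called higher on day 2 were 3 and 2 of 15 for T and NK cells, and 1 and 1 of 18 for monocytes, macrophages and dendritic cells. In the other marker lists 0 were higher. The B cell sums went to 20333 to 22406 and 21511 to 22388. The part of these falls in the rise was not tested. In such samples fewer cells of a type and less RNA per cell cannot be told apart.

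On day 2 none of the 76 genes was called by genotype with limma, where 2.34% of all genes were, and 5 had an unadjusted p under 0.05 (18.0% of the genes above the array medians). The median difference was −0.07, from −0.25 for Mrpl52 to 0.19, with 53 values below 0 and 20 above. The transgenic arrays lay wholly below the wild type arrays for 18 genes and wholly above for 2 (17.1% and 10.8% of the genes above the array medians). Mrps18a had readings of 9.39, 9.37 and 9.47 in wild type and 9.31, 9.18 and 9.20 in transgenic cells, a difference of −0.18 ± 0.088 (adjusted p = 0.489). The difference for Mrps9 was −0.08 ± 0.11 (adjusted p = 0.897). The lowest bound among the intervals of single genes was −0.59 and the highest 0.42. The 1 probe set of 156 that was called, beside 0.995% of all probe sets called lower, was a less bright probe set of Mrpl3 (−0.38, adjusted p = 0.014).

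**Figure D4:**
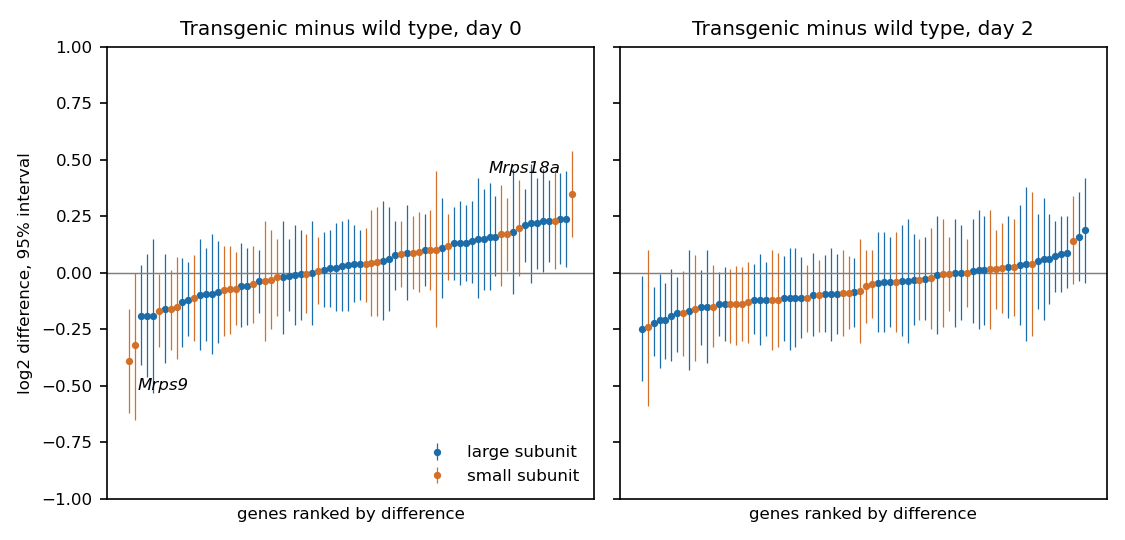
Difference between transgenic and wild type cells (deposited log2 values) for the 76 genes on day 0 (left) and day 2 (right), each panel ranked by its own values; blue is the large and orange the small subunit, and bars are 95% intervals from limma, n = 3 arrays per group. Points stay between −0.39 and 0.35, and Mrps9 and Mrps18a on day 0 are the labelled genes that passed an adjusted p under 0.05.

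Other genes of the mitochondrial translation system rose as well, from lists given here as counts and medians. Beside these counts, 41.3% of the genes above the array medians were higher and 28.9% lower in wild type cells, and 40.8% and 28.1% in transgenic cells. The 4 ribosomal proteins named without the Mrpl or Mrps symbol were higher in both genotypes: Gadd45gip1 (1.80 ± 0.12 in wild type), Chchd1 (1.28), Ptcd3 (1.22) and the GTP-binding Dap3 (0.70). Of 12 translation factors 10 were higher in wild type and 12 in transgenic cells, with medians of 0.98 and 1.03 and none lower. Among them were the elongation factors Gfm1 (1.68 ± 0.086), which moves tRNA along the ribosome, Tufm (1.61 ± 0.13), which brings tRNA to it, and Tsfm (1.60 ± 0.11). Of 29 assembly factors 22 were higher and 2 lower in wild type cells (median 0.67), such as the GTPase Noa1 (1.66), Malsu1 (1.63) and Tfb1m (1.39), which methylates the small ribosomal RNA. Of 19 mitochondrial aminoacyl-tRNA synthetases 12 were higher and 1 lower (median 0.75), with Nars2, which charges asparagine tRNA, at 1.77. Of 18 genes of mitochondrial transcription and mRNA handling 15 were higher and 1 lower (median 0.75). They included the elongation factor Tefm (2.31 ± 0.12) and the mRNA stabilizer Slirp (1.74), while Polg, placed in this list as the DNA polymerase of mitochondria, fell by 0.49.

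The products of these ribosomes work beside nuclear subunits of oxidative phosphorylation, of which 56 of 71 were higher and 5 lower in wild type cells, with a median of 0.61. These are 78.9% and 7.04%, beside 41.3% and 28.9% of the genes above the array medians. Atp5g1, of the ATP synthase ring, rose by 1.53, while Cox7c of cytochrome oxidase fell by 1.54. The ribosomal proteins of the cytosol were spread about 0: of 49 genes 13 were higher and 9 lower, with a median of −0.0044. Their shares, 26.5% and 18.4%, were no larger than those of the genes above the array medians. In that list 3 of 49 genes were called at least 2-fold higher, beside 14.9% of the genes above the array medians. Rpl7l1 (2.40) and Rps27l (2.05) are relatives of core ribosomal proteins, while Rpl14 is itself a core ribosomal protein. Of 13 regulators of mitochondrial biogenesis 3 were higher and 4 lower in wild type cells (median 0.11). That was no larger a share than the 60.0% of all genes called in either direction. In transgenic cells 6 were higher and 3 lower (46.2% and 23.1%), beside 40.8% and 28.1% of the genes above the array medians. The following are wild type values of single genes. Pprc1, a coactivator of the PGC-1 family, rose by 1.47 and Gabpa, the DNA-binding part of GABP, by 0.64, while Nrf1 fell by 0.91 and Myc fell by 1.25. Differences between these lists and the 76 genes were not tested.

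**Figure D5:**
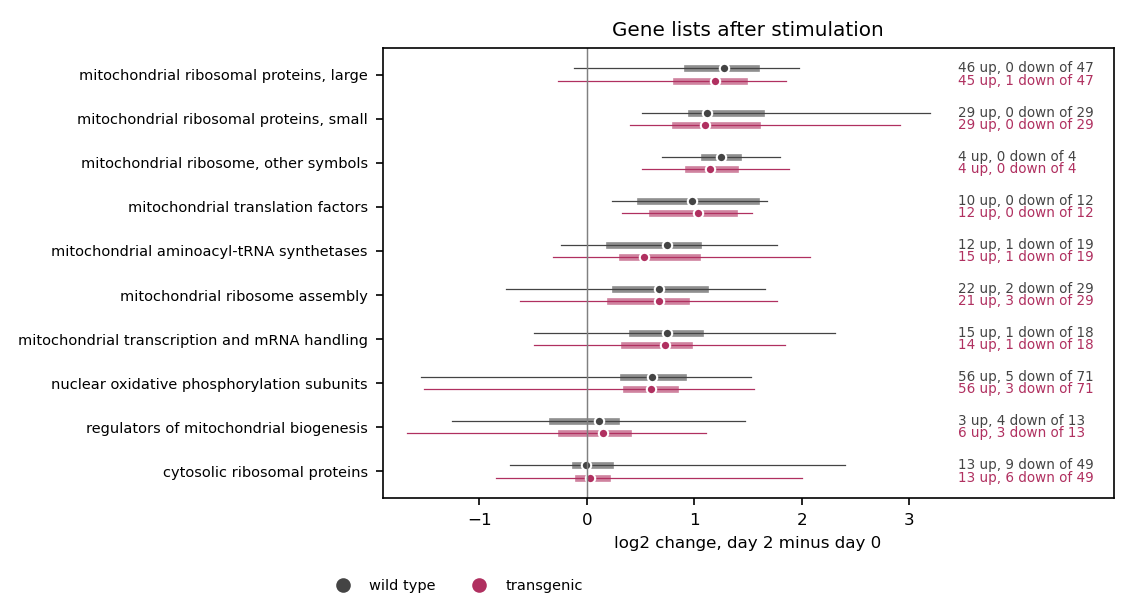
Change from day 0 to day 2 (log2, quantile-normalized) by gene list in wild type (grey) and transgenic (red) cells: points are medians over genes, thick bars quartiles, thin lines the lowest and highest gene, and the text gives how many genes were called higher (up) or lower (down). Mitochondrial ribosomal proteins have medians of 1.10 to 1.28, oxidative phosphorylation subunits of 0.60 and 0.61, and cytosolic ribosomal proteins of −0.0044 and 0.032.

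By genotype, 10.4% of all genes were called on day 0. Of these lists, 4 of 49 cytosolic ribosomal genes were higher (Rps27l, Rps4l, Rpl39l and Rps6, by 0.31 to 0.48) and 2 of 71 oxidative phosphorylation genes were lower (Ndufa6 and Uqcrb). Of the translation factors 1 of 12 was lower, of the assembly factors 1 of 29, of the synthetases 0 of 19 and of the regulators 3 of 13, while 1 of 18 genes of transcription and mRNA handling was higher and 2 were lower. Gadd45gip1, a large subunit protein, was lower in transgenic cells by 0.48 on the log2 scale (−0.48 ± 0.13, adjusted p = 0.0332). The mRNA stabilizer Lrpprc (−0.42), the release factor Mtrf1l (−0.51), the assembly factor Ngrn (−0.33) and Polg (−0.33) were lower, while the RNA-binding protein Ptcd1 was higher (0.40). Among the regulators Nrf1 (−0.32) was lower, as were the GABP subunits Gabpb1 (−0.48) and Gabpb2 (−0.34). Wild type day 0 replicates 1 to 3 had mean levels (deposited log2) of 8.32, 8.10 and 8.01 for transcription and mRNA handling, against 8.11, 8.11 and 8.05 in transgenic cells. For assembly they were 7.92, 7.76 and 7.67 against 7.74, 7.76 and 7.73, and for the list of Gadd45gip1 8.99, 8.82 and 8.85 against 8.77, 8.74 and 8.73. The part of replicate 1, which had the largest 3′ excess, in these calls was not tested. On day 2 Polg (−0.39, adjusted p = 0.0201), Rps4l (0.85) and Rpl39l (0.49) passed again, and Gadd45gip1 came to −0.54 (adjusted p = 0.0515).

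The stimulation changes were set beside the promoter motifs as a description. In wild type cells the median change was 1.08 with CCGGAAG and 1.36 without, 1.28 and 1.16 for AAGATGG, 1.16 and 1.24 for GCGCATG, 1.44 and 1.16 for CACGTG, and 1.26 and 1.19 for TGACGTC. The sequences printed above show both kinds among the large rises: Mrps22 and Mrpl22 hold CCGGAAG, and Mrps6 holds none of the 5 motifs in its window. Of the 23 divergent partners 12 were higher and 5 lower in wild type cells, where 60.0% of all genes were called in either direction, and 2 of the 12, Mrps11 and Mrpl46, are themselves members. The median of the partners was 0.49, where their own member genes had a median of 1.44. Mrps11 and Mrpl46, whose starts lie 42 bp apart, both rose, by 1.64 and 1.59. Mrpl57 rose by 0.96 beside the mitotic gene Ska3 at 3.28, and Mrpl51 by 1.67 beside Ncapd2, a condensin subunit, at 2.27. Partners could also fall, as Klc4 did beside Mrpl2 (−1.06 against 1.44) and Pnpla7 beside Mrpl41 (−1.28 against 1.65).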

How the data were processed

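For each of 12 samples, labelled RNA made from 4 µg of input was hybridized to an Affymetrix mouse array, and the authors deposited log2 probe set values made with RMA (affy), per the submitters' processing notes; versions, and whether all arrays were normalized together, are not given in the sources used here. Members and lists were chosen with earlier results of these data known. Of 45101 probe sets 64 controls were left out. limma 3.58.1 (R 4.3.3) was fitted with 1 coefficient per group over 12 arrays, and p-values were adjusted by Benjamini and Hochberg over 45037 probe sets. Genotype contrasts and the interaction used deposited values, stimulation contrasts quantile-normalized values. The probe set with the highest mean stood for a gene. With 3 arrays per group, their number limits the precision. Genes were named by rule: the 6 largest rises per subunit and the called falls in each stimulation contrast, called genes by genotype, genes with opposed probe sets, a fixed set, and up to 3 called genes per list; partners, Mrpl52, Mrpl58, Mrps36 and some list genes were added after their values were seen. On simulated data for the day 0 genotype contrast (200 of 45037 probe sets changed), 44% of log2 changes of 0.5 and 90% of changes of 1 were recovered, with 6 false among 140 calls. Same-numbered replicates resembled each other (r over 0.1 in each pair) for wild type stimulation (0.327, 0.176, 0.219) and for genotype on day 2 (0.33, 0.101, 0.178), but not for the other 2 contrasts. Alternatives were other scalings, probe set choices, the replicate block and each array left out. Promoters came from a RefSeq table of GRCm38.p6.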

Additional observations from a re-analysis of the deposited data

How the results depend on the processing

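For stimulation, the counts of genes higher stayed within 1.5 times under each alternative except the count over all probe sets, while the medians moved with the scaling: 1.11 in wild type and 1.08 in transgenic cells on deposited values, whose median over all probe sets was itself −0.40, and 1.73 and 1.72 with array medians subtracted. On those scales 17.9% and 70.9% of the wild type calls over all probe sets were higher, against 54.0% here (17.5%, 73.3% and 54.6% in transgenic cells). Without _s, _x and _a probe sets (62 genes) the medians were 1.12 and 1.06, with 2 genes lower in wild type, and by the median over a gene's probe sets 0.98 and 0.90. Over all probe sets 124 were higher and 12 lower in wild type and 123 and 11 in transgenic cells. In transgenic cells 0 genes were lower on deposited or median-subtracted values. Leaving out 1 array gave medians of 1.20 to 1.30 in wild type and 1.12 to 1.18 in transgenic cells.

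Without _s, _x and _a probe sets Mrpl21 (−0.54 and −0.12), Mrpl38 (−0.32 and −0.06) and Mrpl58 (−0.19 and −0.24) changed sign in wild type and transgenic cells, as did Mrpl1 by genotype on day 0 (−0.52). Mrpl24 came to 0.63 and 0.49 with array medians subtracted. The causes were not tested.

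For genotype on day 0, 4 genes were higher on quantile-normalized values, 2 without _s, _x and _a probe sets, and 0 higher and 0 lower in the fit of the 6 arrays compared. By probe set 5 were higher and 3 lower, and leaving out 1 array gave 0 to 2 higher and 0 to 1 lower. The median was −0.0083 with array medians subtracted, where 36.3% of the calls over all probe sets were higher, against 47.3% on deposited values. On day 2 the median was −0.029 on quantile-normalized values, and 1 probe set was lower. The interaction's median was −0.047 by the median over probe sets. Leaving out 1 array gave interaction medians of −0.13 to −0.087 and 0 to 1 genes lower. With the replicate number as a block, 75 genes were higher in wild type, 74 higher and 1 lower in transgenic cells, 1 higher and 1 lower by genotype on day 0 and 0 on day 2, so the pairing changed none of these counts. With 3 arrays per group, changes near 0.5 were often missed in simulated data in which 200 probe sets were changed. In the day 0 genotype contrast 4256 probe sets were called. The adjusted p cut-off is stricter where fewer probe sets change, so the simulation does not give the share missed in the family.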
